A study of Arabidopsis thaliana with 8 samples.

Results

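The 2 reciprocal hybrid crosses between Col-0 and ein2-5 were set against each other: 2 libraries of ein2-5 x Col-0 and 2 libraries of Col-0 x ein2-5, which are 4 of the 8 libraries of the series. They were chosen by their labelled cross alone. All libraries hold RNA of Arabidopsis thaliana endosperm, cut out of seeds 6 days after pollination with a laser microdissection microscope. The other 4 libraries, 2 of ein2-5 x ein2-5 and 2 of Col-0 x Col-0, entered the estimate of spread and are given beside some values. Col-0 is the wild-type accession and ein2-5 carries a loss-of-function allele of EIN2 that makes plants insensitive to ethylene. All plants grew under long days, and the mother of each cross was emasculated before pollen was applied. The labels leave unstated which name stands for the mother. Here the first name of a cross is read as the mother and the second as the father, so that ein2-5 x Col-0 seeds have an ein2-5 mother and Col-0 x ein2-5 seeds a Col-0 mother. Nothing states that replicate libraries came from separate plants, so the p-values can reflect only how far these samples vary, which may be technical.

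Ethylene is perceived by receptors in the endoplasmic reticulum, which in its absence keep the kinase CTR1 active. CTR1 blocks EIN2, and when ethylene binds, EIN2 is cleaved and its end moves to the nucleus, where it promotes the transcription factors EIN3 and EIL1. The endosperm nourishes the embryo, starts as a syncytium and then forms cell walls. It holds more copies of the maternal than of the paternal genome, and imprinted genes are read mainly from the copy of 1 parent, so reciprocal hybrids carry the same pair of alleles in different doses and parental states. The seed coat around it is purely maternal tissue, so its genotype also differs between the crosses.

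No single gene passed the test between the reciprocal hybrids. Of 19719 tested genes, limma called 0 at an adjusted p under 0.05 (0%), and the smallest Benjamini-Hochberg adjusted p was 0.28. An unadjusted p under 0.05 was found for 595 genes (3.02%), fewer than the 986 that this threshold gives by chance. Of these, 222 (1.13% of all tested) were higher and 373 (1.89%) were lower in ein2-5 x Col-0. The share of higher genes among them was 37.3% in the deposited scale, 42.3% after median-ratio scaling and 49.0% under quantile normalization. With limma-voom on estimated fragments 0 of 14396 genes were called and 428 had an unadjusted p under 0.05, against 720 by chance. The main fit shares its spread with the selfed crosses. The median standard deviation within a cross was 0.27 for Col-0 x Col-0 and 0.19 for ein2-5 x ein2-5. It was 0.18 for ein2-5 x Col-0 and 0.16 for Col-0 x ein2-5. A limma fit of the 4 hybrid libraries alone gave 964 genes at an unadjusted p under 0.05. It called 0, with a smallest adjusted p of 0.063. The number under the threshold thus depended on whose spread was used.

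**Figure D1:**
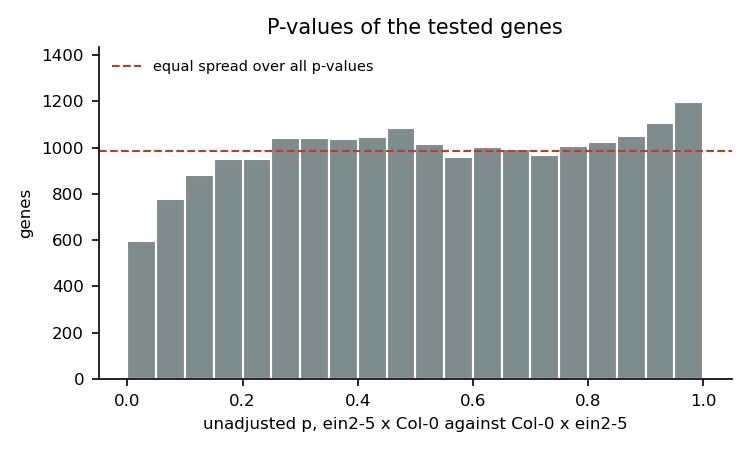
Number of tested genes (vertical axis) by unadjusted p for the comparison of the reciprocal hybrids (horizontal axis, bins of 0.05). The first bin holds 595 genes and lies under the dashed line, the 986 genes that an equal spread over all p-values would give. The fit behind it shares its spread with the selfed crosses.

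The precision behind this result varied among genes. The median standard error (SE) of a log2 difference was 0.30, and the median absolute difference was 0.19. For 53.9% of genes the 95% interval of the difference lay within 2-fold in either direction. For the others a difference of 2-fold was not excluded. The median of all genes was -0.02.

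Without a test, a gene was described as not overlapping when both libraries of one cross lay above both of the other. In ein2-5 x Col-0, 3172 genes (16.1%) were higher in this sense and 3831 (19.4%) were lower. Among them 253 higher (1.28%) and 249 lower (1.26%) genes were also at least 2-fold apart on the log2(FPKM + 1) scale. FPKM is the number of fragments of a gene per unit of transcript length and of mapped reads. These shares are the background for the counts in gene groups given below.

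The libraries of the hybrids were close to each other. Across genes, Pearson's r of log2 values was 0.943 within ein2-5 x Col-0 and 0.957 within Col-0 x ein2-5, and between the crosses it ran from 0.948 to 0.959. Relative depth, estimated from the steps of low values, was 0.973 and 0.886 in ein2-5 x Col-0, against 1 and 1.136 in Col-0 x ein2-5, so both ein2-5 x Col-0 libraries were shallower. A single fragment on a transcript of 1500 nt gave 0.68 and 0.75 FPKM in ein2-5 x Col-0 and 0.66 and 0.58 FPKM in Col-0 x ein2-5. In bulk samples fewer cells of a type and less RNA per cell cannot be told apart. The labels do not state strand, so overlapping genes cannot be separated.

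EIN2 (AT5G03280) had the lower values in the hybrid with the mutant mother. It was measured at 26.2 and 22.2 FPKM in ein2-5 x Col-0 and at 31.39 and 50.03 FPKM in Col-0 x ein2-5. The crosses did not overlap, and the 2 Col-0 x ein2-5 libraries were far apart from each other. The log2 difference was -0.70 ± 0.28 (SE), with a 95% interval of -1.35 to -0.04, an unadjusted p of 0.041 and a limma adjusted p of 1. It was -0.37 without Col-0 x ein2-5 replicate 2. The value rested on about 184 estimated fragments per library. The selfed crosses had 19.7 and 23.7 FPKM in ein2-5 x ein2-5, against 35.7 and 54.8 FPKM for Col-0 x Col-0. A transcript level does not read the allele itself, so these values do not show which parental copy the fragments came from.

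Ethylene perception and signalling genes had most of their values on the lower side in ein2-5 x Col-0. Of 18 tested members 0 were called and 2 had an unadjusted p under 0.05. Not overlapping and lower were 8 (44.4%, against 19.4% of all genes), and 1 (5.56%, against 16.1%) was higher. The median was -0.15, against -0.02 for all tested genes. It stayed between -0.19 and -0.09 when each hybrid library was left out in turn. The summed FPKM of the list was 556 and 546 in ein2-5 x Col-0, against 580 and 647 in Col-0 x ein2-5.

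By the naming rule, the most abundant members were RTE1 and ERS1. RTE1, a protein that sustains the activity of the ETR1 receptor, measured 180 and 160 FPKM in ein2-5 x Col-0 and 178 and 170 FPKM in Col-0 x ein2-5 (log2 difference -0.03 ± 0.14, SE). The crosses overlapped for RTE1, and its 95% interval ran from -0.36 to 0.29. ERS1, an ethylene receptor, measured 44.9 and 47.5 FPKM in ein2-5 x Col-0 and 47.9 and 61.9 FPKM in Col-0 x ein2-5 (-0.23 ± 0.25, unadjusted p = 0.37 by limma).

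The following members were chosen after their values were seen. EIL1, the close relative of EIN3, stood at 1.25 and 0.914 FPKM in ein2-5 x Col-0 and at 4.05 and 2.85 FPKM in Col-0 x ein2-5. These values fit 3 and 2 fragments in ein2-5 x Col-0 and 10 and 8 fragments in Col-0 x ein2-5. Fragment numbers given here and below are the smallest whole numbers that fit a gene's values, and the true numbers may be a multiple of them. The log2 difference was -1.09 ± 0.45 (SE), with a limma unadjusted p of 0.042 and an adjusted p of 1. EIN3 itself, the main transcription factor of the response, measured 19.0 and 22.2 FPKM in ein2-5 x Col-0 and 27.2 and 30.9 FPKM in Col-0 x ein2-5 (-0.48 ± 0.29, limma unadjusted p = 0.14). EIL3, an EIN3-family factor known from sulphur deficiency, measured 10.9 and 14.4 FPKM in ein2-5 x Col-0 and 15.7 and 21.0 FPKM in Col-0 x ein2-5 (-0.50 ± 0.30). RAN1, the copper transporter that equips the receptors, measured 9.86 and 14.0 FPKM in ein2-5 x Col-0 and 15.5 and 18.7 FPKM in Col-0 x ein2-5 (-0.50 ± 0.26).

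EIL2, the fourth EIN3-family member of the list, was low and lay on the other side, at 1.14 and 1.25 FPKM in ein2-5 x Col-0 and 1.1 and 0.486 FPKM in Col-0 x ein2-5 (0.31 ± 0.45, SE, limma unadjusted p = 0.51). It was the 1 member that was higher without overlap. Its values fit 2 fragments in each ein2-5 x Col-0 library, against 2 and 1 in Col-0 x ein2-5, so depth allows no statement of a difference. For EIL1, EIN3, EIL3 and RAN1 both ein2-5 x Col-0 libraries thus lay under both Col-0 x ein2-5 libraries, by margins that the adjusted test did not pass. CTR1 was nearly level, at 30.5 and 30.9 FPKM in ein2-5 x Col-0 and 32.9 and 34.3 FPKM in Col-0 x ein2-5. The F-box proteins EBF1 and EBF2, which mark EIN3 for breakdown, overlapped between the crosses, with log2 differences of 0.06 ± 0.20 for EBF1 and -0.01 ± 0.21 for EBF2 (SE).

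**Figure D2:**
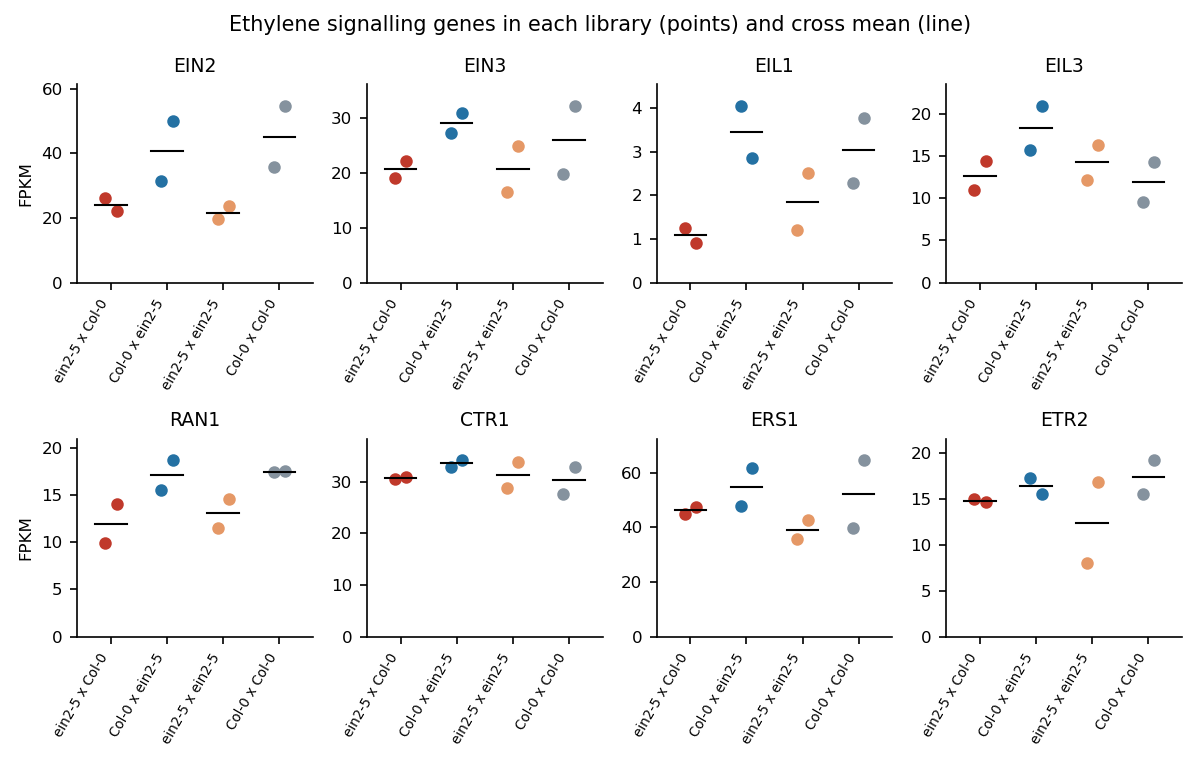
FPKM (vertical axis, from 0) of 8 ethylene signalling genes in each library of the 4 crosses; points are libraries and lines are the mean of 2. In all 8 panels both ein2-5 x Col-0 points lie under both Col-0 x ein2-5 points, as for EIN2 at 26.2 and 22.2 FPKM against 31.39 and 50.03 FPKM; the panels show EIN2 and the 7 other members that were lower without overlap.

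Genes that respond to ethylene did not show that direction, but most had too few fragments to show a shift of that size. The median SE of a member was 0.64, against 0.25 in the signalling list. Of 16 listed genes, 12 were tested and 3 were at 0 in all 4 hybrid libraries. Of the 12, 0 were called, 1 (8.33%, against 16.1% of all genes) was higher and 0 (against 19.4%) were lower without overlap. The median was 0.05. ERF11, a repressor of the ERF family, measured 71.8 and 77.6 FPKM in ein2-5 x Col-0 and 74.3 and 61.5 FPKM in Col-0 x ein2-5 (0.14 ± 0.33, SE). ERF4, another repressor of that family, measured 46.5 and 35.7 FPKM in ein2-5 x Col-0 and 37.1 and 37.4 FPKM in Col-0 x ein2-5 (0.13 ± 0.18). The crosses overlapped for both. EDF2, a member of the RAV family, stood at 0.718 and 0.788 FPKM in ein2-5 x Col-0 and at 0 in both Col-0 x ein2-5 libraries, which fits 1 fragment in each ein2-5 x Col-0 library.

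Ethylene synthesis genes were mostly low. Of 17 genes, 12 were tested and 5, all of them ACC synthases, were at 0 in every hybrid library. Of the 12, 0 were called, 1 (8.33%, against 16.1% of all genes) was higher and 1 (8.33%, against 19.4%) lower without overlap. The median was 0.12. EOL1, a relative of ETO1 that targets ACC synthases for breakdown, measured 19.4 and 21.9 FPKM in ein2-5 x Col-0 and 18.3 and 22.3 FPKM in Col-0 x ein2-5 (0.02 ± 0.26, SE). ACS6, an ACC synthase, stood at 0 and 1.83 FPKM in ein2-5 x Col-0 and at 4.33 and 3.33 FPKM in Col-0 x ein2-5, which fits 0 and 3 fragments against 8 and 7. Its limma unadjusted p was 0.074.

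Imprinted genes lay on both sides of 0. Of 11 maternally expressed genes 0 were called, 1 was higher and 2 were lower without overlap, with a median of -0.08. SDC, an F-box gene silenced by DNA methylation in most tissues, measured 190 and 140 FPKM in ein2-5 x Col-0 and 172 and 163 FPKM in Col-0 x ein2-5 (-0.04 ± 0.19, SE). HDG9, a homeodomain factor, measured 94.1 and 116 FPKM in ein2-5 x Col-0 and 115 and 152 FPKM in Col-0 x ein2-5 (-0.34 ± 0.20). Both overlapped between the crosses, HDG9 only by the margin between 116 and 115 FPKM. MPC, which encodes the C-terminal part of a poly(A)-binding protein, stood at 10.8 and 2.96 FPKM in ein2-5 x Col-0 and at 15.7 and 13.8 FPKM in Col-0 x ein2-5. That fits 4 and 1 fragments in ein2-5 x Col-0 and 6 in each Col-0 x ein2-5 library. The log2 difference of MPC was -1.21 ± 0.46 (SE), with a limma unadjusted p of 0.033 and an adjusted p of 1. It was -1.99 when replicate 1 of ein2-5 x Col-0 was left out and -0.42 when replicate 2 of that cross was.

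Of 10 paternally expressed genes 9 were tested and 0 were called, with a median of -0.04. Of the 9, 3 (33.3%, against 16.1% of all genes) were higher and 2 (22.2%, against 19.4%) lower without overlap. HDG3, a homeodomain factor of the endosperm, measured 317 and 277 FPKM in ein2-5 x Col-0 and 273 and 231 FPKM in Col-0 x ein2-5 (0.24 ± 0.26, SE). PHE1, a type I MADS-box factor, measured 179 and 166 FPKM in ein2-5 x Col-0 and 147 and 120 FPKM in Col-0 x ein2-5 (0.37 ± 0.29). PKR2, a chromatin remodeller, measured 12.3 and 14.2 FPKM in ein2-5 x Col-0 and 16.0 and 20.4 FPKM in Col-0 x ein2-5 (-0.42 ± 0.23, limma unadjusted p = 0.10). None of the 3 overlapped, and they lay in both directions.

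PRC2 places the repressive mark H3K27me3 and keeps imprinted genes silent in the endosperm. Of its 8 subunit genes 0 were called, 0 (against 16.1% of all genes) were higher and 2 (25%, against 19.4%) lower without overlap. The median was -0.06. The core subunits were close: MSI1 measured 166 and 163 FPKM in ein2-5 x Col-0 and 174 and 151 FPKM in Col-0 x ein2-5. FIE measured 137 and 130 FPKM in ein2-5 x Col-0 and 134 and 140 FPKM in Col-0 x ein2-5. Their log2 differences were 0.02 ± 0.12 for MSI1 and -0.04 ± 0.12 for FIE (SE), with 95% intervals that ended within 0.31 of 0 on either side. EMF2, a subunit of the complex outside the endosperm's own form, measured 23.2 and 26.3 FPKM in ein2-5 x Col-0 and 31.9 and 36.3 FPKM in Col-0 x ein2-5 (-0.45 ± 0.24, limma unadjusted p = 0.099).

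Type I MADS-box genes encode transcription factors of the gametophyte and early endosperm, among them AGL62, which holds back cell wall formation. Of 22 genes 18 were tested and 0 were called. Without overlap 6 (33.3%, against 16.1% of all genes) were higher and 1 (5.56%, against 19.4%) was lower. The median was 0.11. With ein2-5 x Col-0 replicate 1 left out the median was -0.01, and with replicate 2 of that cross left out 0.47. With Col-0 x ein2-5 replicate 1 left out it was 0.37, and with replicate 2 left out -0.15. AGL87 measured 381 FPKM in each ein2-5 x Col-0 library and 372 and 325 FPKM in Col-0 x ein2-5 (0.13 ± 0.21, SE). AGL36, a maternally expressed member, stood at 2.55 and 1.86 FPKM in ein2-5 x Col-0 and at 1.65 and 0 FPKM in Col-0 x ein2-5, which fits 3 and 2 fragments against 2 and 0. AGL62, chosen after its values were seen, was low in both crosses, at 7.52 and 1.03 FPKM in ein2-5 x Col-0 and at 3.66 and 4.02 FPKM in Col-0 x ein2-5. PHE1 and its neighbour PHE2 are close paralogs, so fragments of this pair may be split between them with uncertainty.

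Markers of endosperm were present in both hybrids. Of 17 marker genes 12 were tested and 4 were at 0 in all hybrid libraries, among them ESF1.1 and IKU2, both named after their values were seen. Their summed FPKM was 1487 and 1310 in ein2-5 x Col-0, against 1440 and 1424 in Col-0 x ein2-5. Of the 12, 0 were called, 2 (16.7%, against 16.1% of all genes) were higher and 1 (8.33%, against 19.4%) lower without overlap. The median was -0.13. ICE1, which acts with ZOU in the breakdown of the endosperm, measured 325 and 357 FPKM in ein2-5 x Col-0 and 319 and 346 FPKM in Col-0 x ein2-5 (0.04 ± 0.14, SE). SUC5, a sucrose carrier of the endosperm, measured 272 and 246 FPKM in ein2-5 x Col-0 and 246 and 221 FPKM in Col-0 x ein2-5 (0.15 ± 0.21). ESF1.3, a small peptide of the endosperm around the embryo, stood at 155 and 17.1 FPKM in ein2-5 x Col-0 and at 136 and 133 FPKM in Col-0 x ein2-5. Its low value lay in 1 library, ein2-5 x Col-0 replicate 2, and its annotated transcript has only 273 nt.

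Genes of neighbouring tissues were present too. The 19 flavonoid and tannin genes of the seed coat summed to 1224 and 702 FPKM in ein2-5 x Col-0 and to 1034 and 853 FPKM in Col-0 x ein2-5. Of them 0 were called, 2 (10.5%, against 16.1% of all genes) were higher and 1 (5.26%, against 19.4%) lower without overlap. The median was 0.04. TT4, the chalcone synthase that opens the pathway, measured 333 and 150 FPKM in ein2-5 x Col-0 and 259 and 195 FPKM in Col-0 x ein2-5. LDOX, a late enzyme of the pathway, measured 162 and 91.4 FPKM in ein2-5 x Col-0 and 144 and 110 FPKM in Col-0 x ein2-5. For both genes replicate 1 was the higher library of each cross. TT16, a MADS-box regulator of the inner seed coat layer, stood at 2.59 and 2.85 FPKM in ein2-5 x Col-0 and at 7.57 and 6.66 FPKM in Col-0 x ein2-5. The log2 difference of TT16 was -1.12 ± 0.46 (SE), with a limma unadjusted p of 0.042 and an adjusted p of 1.

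The 13 mucilage genes of the outer seed coat had 0 called and a median of -0.04. Without overlap 0 (against 16.1% of all genes) were higher and 2 (15.4%, against 19.4%) lower. SBT1.7, a protease needed for mucilage release, measured 136 and 108 FPKM in ein2-5 x Col-0 and 112 and 107 FPKM in Col-0 x ein2-5. NARS1, a NAC factor of the integuments, measured 58.9 and 42.0 FPKM in ein2-5 x Col-0 and 57.9 and 81.1 FPKM in Col-0 x ein2-5. MUM4, a rhamnose synthase for mucilage pectin, measured 5.17 and 8.11 FPKM in ein2-5 x Col-0 and 9.70 and 11.7 FPKM in Col-0 x ein2-5 (-0.64 ± 0.37, SE). SBT1.7 and NARS1 overlapped between the crosses and MUM4 did not.

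Of 19 embryo markers 16 were tested and 0 were called, and the median was -0.12. Of the 16, 5 (31.2%, against 16.1% of all genes) were higher and 5 (31.2%, against 19.4%) lower without overlap. LEC1, a regulator of seed maturation that is also read in endosperm, measured 440 and 450 FPKM in ein2-5 x Col-0 and 401 and 395 FPKM in Col-0 x ein2-5 (0.16 ± 0.15, SE). LEC2, a B3 factor of the same network, measured 39.0 and 39.3 FPKM in ein2-5 x Col-0 and 47.7 and 55.4 FPKM in Col-0 x ein2-5 (-0.38 ± 0.17, limma unadjusted p = 0.052). PDF1, an epidermal gene, measured 141 and 154 FPKM in ein2-5 x Col-0 and 126 and 93.1 FPKM in Col-0 x ein2-5 (0.44 ± 0.35). Of organ-boundary and meristem genes, WUS was at 0 in all 4 hybrid libraries. CUC1, a boundary gene of the embryo, measured 58.0 and 33.7 FPKM in ein2-5 x Col-0 and 74.1 and 83.7 FPKM in Col-0 x ein2-5 (-0.82 ± 0.41, limma unadjusted p = 0.081). CUC2, its close relative, stood at 1.83 and 1.00 FPKM in ein2-5 x Col-0 and at 0 in both Col-0 x ein2-5 libraries (limma unadjusted p = 0.078). STM, the meristem homeobox gene, stood at 0.748 and 3.28 FPKM in ein2-5 x Col-0 and at 0.727 and 0.64 FPKM in Col-0 x ein2-5 (0.70 ± 0.81, limma unadjusted p = 0.41). CUC1 was thus lower and CUC2 and STM, both at the level of a few fragments, were higher in ein2-5 x Col-0 without overlap. These 4 genes were chosen after their values were seen. The part of neighbouring tissue in any gene's difference was not tested.

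**Figure D3:**
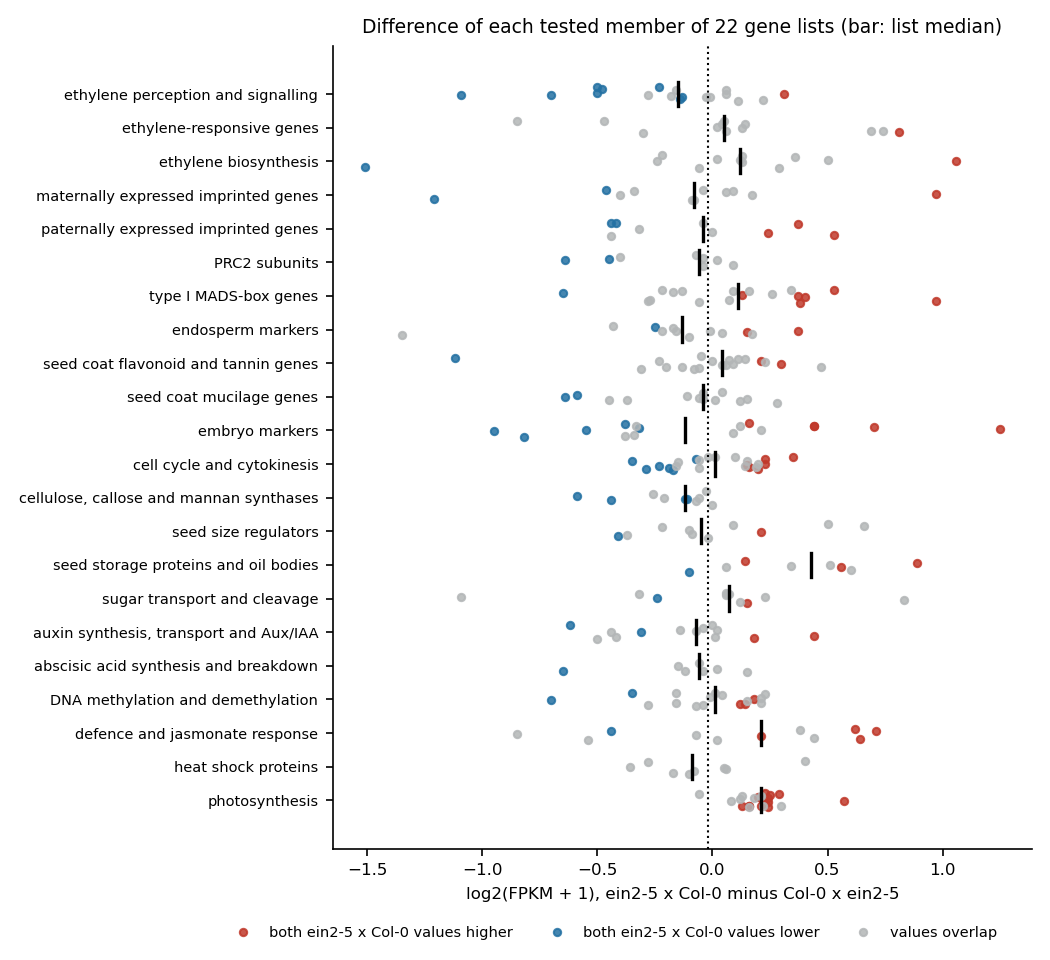
Log2 difference of each tested member (points, horizontal axis, ein2-5 x Col-0 minus Col-0 x ein2-5) in 22 gene lists (rows); black bars are list medians and the dotted line is the median of all genes, -0.02. Medians lie between -0.15 and 0.43, and photosynthesis is the list with 14 of 23 members higher without overlap.

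Genes of cell division and the cell plate were nearly level. Of 23 genes 0 were called, 6 (26.1%, against 16.1% of all genes) were higher and 6 (26.1%, against 19.4%) lower without overlap. The median was 0.01. KN, the cell plate syntaxin KNOLLE, measured 453 and 538 FPKM in ein2-5 x Col-0 and 481 and 443 FPKM in Col-0 x ein2-5 (0.10 ± 0.20, SE). CDC20.1, an activator of the complex that ends mitosis, measured 160 and 178 FPKM in ein2-5 x Col-0 and 159 and 146 FPKM in Col-0 x ein2-5 (0.15 ± 0.20). CYCB1;4, a mitotic cyclin, measured 78.1 and 95.8 FPKM in ein2-5 x Col-0 and 73.6 and 62.1 FPKM in Col-0 x ein2-5 (0.35 ± 0.16, limma unadjusted p = 0.058).

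Of 12 genes for cellulose, callose and mannan synthases 10 were tested and 0 were called, and the median was -0.12. Of the 10, 0 (against 16.1% of all genes) were higher and 4 (40%, against 19.4%) lower without overlap. CSLA2, a mannan synthase, measured 156 and 187 FPKM in ein2-5 x Col-0 and 170 and 188 FPKM in Col-0 x ein2-5. CESA3, a cellulose synthase of primary walls, measured 57.2 and 63.4 FPKM in ein2-5 x Col-0 and 61.2 and 61.8 FPKM in Col-0 x ein2-5. The crosses overlapped for CSLA2 and CESA3. CESA6, another primary-wall cellulose synthase, measured 39.2 and 41.3 FPKM in ein2-5 x Col-0 and 49.8 and 60.9 FPKM in Col-0 x ein2-5 (-0.44 ± 0.17, SE, limma unadjusted p = 0.034, adjusted p = 1). The callose synthases GSL8 and GSL10, chosen after their values were seen, had differences of -0.12 ± 0.15 for GSL8 and -0.11 ± 0.15 for GSL10 (SE).

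Of 15 seed size regulators 10 were tested and 0 were called, with a median of -0.05. Of the 10, 1 (10%, against 16.1% of all genes) was higher and 1 (10%, against 19.4%) lower without overlap. ARF2, a repressor of seed growth, measured 51.8 and 63.6 FPKM in ein2-5 x Col-0 and 60.7 and 61.3 FPKM in Col-0 x ein2-5. IKU1, a VQ-motif protein needed for endosperm growth, measured 31.3 and 31.0 FPKM in ein2-5 x Col-0 and 26.9 and 26.8 FPKM in Col-0 x ein2-5 (0.21 ± 0.18, SE). The 2 libraries of each cross were nearly equal for IKU1, and the SE, which is shared with the other crosses, was larger than their spread. DA1, a ubiquitin receptor that limits organ and seed size, measured 17.2 and 25.1 FPKM in ein2-5 x Col-0 and 26.1 and 29.8 FPKM in Col-0 x ein2-5 (-0.41 ± 0.24).

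Storage protein and oil body genes had the highest list median, 0.43. Of 16 genes only 8 were tested and 7 were at 0 in all hybrid libraries. Of the 8, 0 were called, 3 (37.5%, against 16.1% of all genes) were higher and 1 (12.5%, against 19.4%) lower without overlap. Without ein2-5 x Col-0 replicate 1 the median was 0.21. Without replicate 2 of that cross it was 0.84. OLEO3, an oleosin that coats oil bodies, measured 419 and 493 FPKM in ein2-5 x Col-0 and 413 FPKM in each Col-0 x ein2-5 library (0.14 ± 0.16, SE). OLEO2, another oleosin, measured 65.9 and 44.8 FPKM in ein2-5 x Col-0 and 37.2 and 36.1 FPKM in Col-0 x ein2-5 (0.56 ± 0.21, limma unadjusted p = 0.029, adjusted p = 1). The difference of OLEO2 was 0.28 when replicate 1 of ein2-5 x Col-0 was left out and 0.83 when replicate 2 of that cross was. In fragments it had 50 and 31 in ein2-5 x Col-0, against 29 and 32 in Col-0 x ein2-5. OLEO1, a further oleosin that was chosen after its values had been seen, was at 29.9 and 24.7 FPKM in ein2-5 x Col-0 and 20.6 and 9.61 FPKM in Col-0 x ein2-5 (0.89 ± 0.39). WRI1, the transcription factor that switches on oil synthesis, was nearly level at 195 and 196 FPKM in ein2-5 x Col-0 and 217 and 202 FPKM in Col-0 x ein2-5.

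Sugar transport and cleavage genes had 10 of 13 tested, 0 called and a median of 0.07. Of the 10, 1 (10%, against 16.1% of all genes) was higher and 1 (10%, against 19.4%) lower without overlap. SWEET15, a sucrose exporter of the seed, measured 214 and 238 FPKM in ein2-5 x Col-0 and 213 and 220 FPKM in Col-0 x ein2-5 (0.06 ± 0.18, SE). SWEET12, a related exporter, measured 8.13 and 3.57 FPKM in ein2-5 x Col-0 and 7.90 and 20.2 FPKM in Col-0 x ein2-5. Its spread lay within Col-0 x ein2-5, where replicate 2 alone was high.

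The auxin list had 13 of 14 genes tested, 0 called and a median of -0.07. Of the 13, 2 (15.4%, against 16.1% of all genes) were higher and 2 (15.4%, against 19.4%) lower without overlap. TAA1, the enzyme that opens the main route of auxin synthesis from tryptophan, measured 47.8 and 46.1 FPKM in ein2-5 x Col-0 and 63.4 and 83.8 FPKM in Col-0 x ein2-5. The crosses did not overlap. The log2 difference was -0.62 ± 0.19 (SE), with a 95% interval of -1.07 to -0.18, a limma unadjusted p of 0.012 and an adjusted p of 1. The Aux/IAA repressors IAA8 and IAA9 were level, with log2 differences of 0.02 ± 0.16 for IAA8 and -0.07 ± 0.18 for IAA9 (SE).

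Abscisic acid genes had 7 of 11 tested, 0 called and a median of -0.06. Of the 7, 0 (against 16.1% of all genes) were higher and 1 (14.3%, against 19.4%) lower without overlap. ABA2, which makes abscisic aldehyde, measured 62.3 and 54.7 FPKM in ein2-5 x Col-0 and 65.7 and 56.4 FPKM in Col-0 x ein2-5. CYP707A1, which breaks the hormone down, measured 26.4 and 35.9 FPKM in ein2-5 x Col-0 and 25.7 and 29.6 FPKM in Col-0 x ein2-5. CYP707A3, of the same family, stood at 0.537 and 0.589 FPKM in ein2-5 x Col-0 and at 1.57 and 1.33 FPKM in Col-0 x ein2-5, where depth allows no firm value.

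ABA4, which acts in the neoxanthin branch that feeds abscisic acid synthesis, was not on that list and was named by its rank. It measured 10.7 and 9.38 FPKM in ein2-5 x Col-0 and 21.8 and 22.0 FPKM in Col-0 x ein2-5. These values fit 10 and 8 fragments in ein2-5 x Col-0, against 21 and 24 in Col-0 x ein2-5. The log2 difference of ABA4 was -1.06 ± 0.20 (SE), with a 95% interval of -1.51 to -0.60, a limma unadjusted p of 0.00077 and an adjusted p of 1. The selfed crosses had 16.5 and 16.7 FPKM in ein2-5 x ein2-5, against 21.4 and 20.9 FPKM for Col-0 x Col-0, so both ein2-5 x Col-0 libraries were the lowest of the 8.

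DNA methylation and demethylation genes had 0 of 17 called, 3 higher and 2 lower without overlap, and a median of 0.01. AGO4, which guides methylation by small RNAs, measured 98.3 and 89.3 FPKM in ein2-5 x Col-0 and 85.8 and 83.5 FPKM in Col-0 x ein2-5 (0.14 ± 0.13, SE). CMT3, a methyltransferase, measured 51.9 and 61.3 FPKM in ein2-5 x Col-0 and 55.7 and 54.1 FPKM in Col-0 x ein2-5 (0.04 ± 0.15). NRPD1, the large subunit of RNA polymerase IV, measured 11.5 and 8.45 FPKM in ein2-5 x Col-0 and 11.8 and 13.8 FPKM in Col-0 x ein2-5 (-0.35 ± 0.26).

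Defence and jasmonate genes had 11 of 14 tested, 0 called and a median of 0.21. Of the 11, 4 (36.4%, against 16.1% of all genes) were higher and 1 (9.09%, against 19.4%) lower without overlap. The median was 0.70 without ein2-5 x Col-0 replicate 2 and -0.06 without Col-0 x ein2-5 replicate 2. PDF2.2, a defensin, measured 1217 and 1255 FPKM in ein2-5 x Col-0 and 1091 and 1042 FPKM in Col-0 x ein2-5 (0.21 ± 0.33, SE). PDF2.3, a related defensin, stood at 16.7 and 12.2 FPKM in ein2-5 x Col-0 and at 8.11 and 9.52 FPKM in Col-0 x ein2-5, which fits 6 and 4 fragments against 3 and 4. JAZ1, a repressor of jasmonate signalling, measured 20.5 and 23.7 FPKM in ein2-5 x Col-0 and 30.7 and 29.7 FPKM in Col-0 x ein2-5 (-0.44 ± 0.37).

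Heat shock protein genes had their widest gaps between replicates of a cross. Of 9 genes 8 were tested and 0 were called, with a median of -0.09. Of the 8, 0 (against 16.1% of all genes) were higher and 0 (against 19.4%) lower without overlap. The list summed to 261 and 144 FPKM in ein2-5 x Col-0 and to 301 and 146 FPKM in Col-0 x ein2-5, so replicate 1 was the higher library in both hybrids. HSP70, a chaperone, measured 62.0 and 34.0 FPKM in ein2-5 x Col-0 and 62.7 and 38.6 FPKM in Col-0 x ein2-5. HSP90.1 measured 57.4 and 43.5 FPKM in ein2-5 x Col-0 and 64.3 and 43.3 FPKM in Col-0 x ein2-5. HSP18.2, a small heat shock protein, stood at 8.97 and 5.91 FPKM in ein2-5 x Col-0 and at 8.72 and 3.07 FPKM in Col-0 x ein2-5.

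Photosynthesis genes had small differences, nearly all in 1 direction. Of 23 members 0 were called, 22 had a difference above 0, where 46% of all tested genes lay above and 53.5% below 0, and 14 (60.9%, against 16.1%) were higher and 0 lower without overlap. The median was 0.21, a size close to the typical SE of a member, 0.22. The median was 0.10 under quantile normalization, 0.10 without Col-0 x ein2-5 replicate 2 and 0.32 without Col-0 x ein2-5 replicate 1. The smallest unadjusted p was 0.081. CAB1, an antenna protein that binds chlorophyll, measured 937 and 959 FPKM in ein2-5 x Col-0 and 862 and 752 FPKM in Col-0 x ein2-5 (0.24 ± 0.33, SE). RBCS1A, a small subunit of Rubisco, measured 682 and 680 FPKM in ein2-5 x Col-0 and 603 and 542 FPKM in Col-0 x ein2-5 (0.25 ± 0.29). PSBO2, of the oxygen-evolving complex, measured 185 and 159 FPKM in ein2-5 x Col-0 and 147 and 133 FPKM in Col-0 x ein2-5 (0.29 ± 0.14).

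The list summed to 9342 and 8700 FPKM in ein2-5 x Col-0 and to 8344 and 7314 FPKM in Col-0 x ein2-5. Transcripts of the chloroplast genome summed to 9735 and 9443 FPKM in ein2-5 x Col-0 and to 8640 and 7562 FPKM in Col-0 x ein2-5. Mitochondrial ones summed to 1893 and 1783 FPKM in ein2-5 x Col-0 and to 1719 and 1313 FPKM in Col-0 x ein2-5. In all 3 sums both ein2-5 x Col-0 libraries, which were the shallower ones, were higher than both Col-0 x ein2-5 libraries. Sums weigh abundant genes most. The mean log2(FPKM + 1) of the photosynthesis list, relative to its mean over the hybrid libraries, overlapped between the crosses. It was 0.20 and 0.01 in ein2-5 x Col-0, against 0.02 and -0.23 in Col-0 x ein2-5. In the selfed crosses chloroplast transcripts summed to 8841 and 8917 FPKM in ein2-5 x ein2-5, at relative depths of 1.01 and 1.615, against 13584 and 8549 FPKM for Col-0 x Col-0, at 0.535 and 1.394. The shallowest library, Col-0 x Col-0 replicate 1, had the highest chloroplast sum. The deepest library, ein2-5 x ein2-5 replicate 2, had a higher one than both Col-0 x ein2-5 libraries. The part of depth in these differences was not tested. CAB1 and its tandem copies, and the Rubisco small subunit genes, are near-identical, so their separate values are uncertain.

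**Figure D4:**
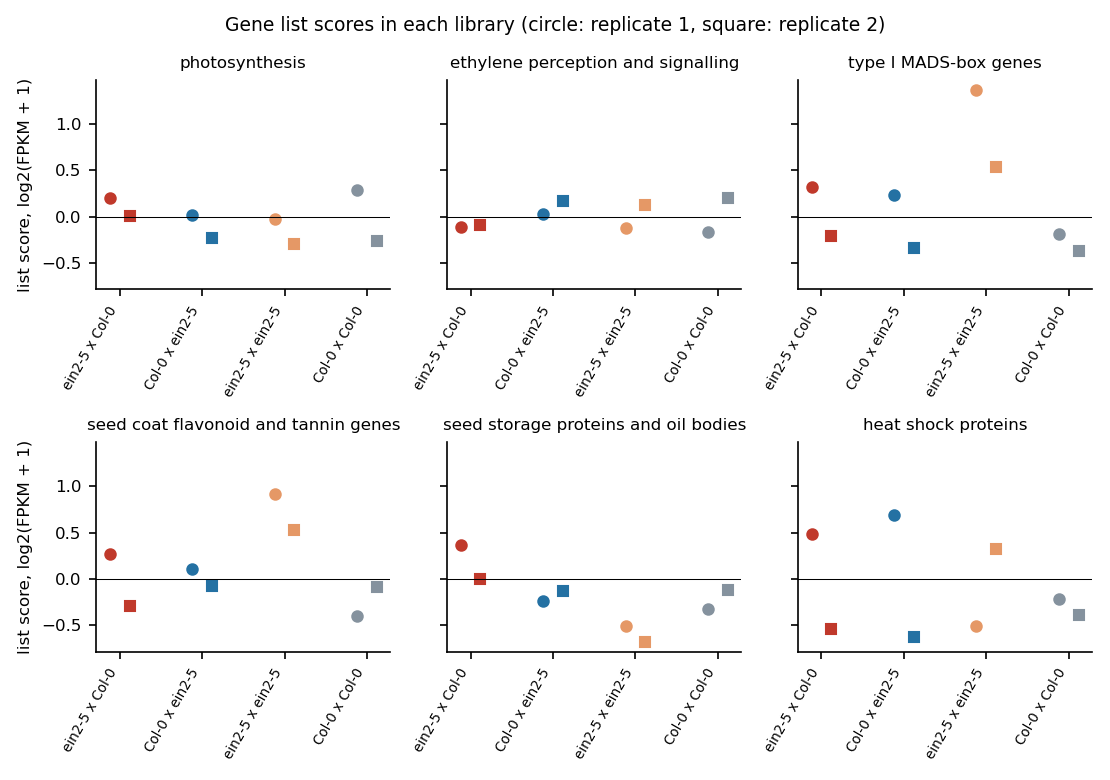
Score of 6 gene lists in each library (vertical axis). The score is the mean log2(FPKM + 1) of the tested members minus its mean over the 4 hybrid libraries. Circles are replicate 1 and squares replicate 2. Photosynthesis scores are 0.20 and 0.01 in ein2-5 x Col-0, against 0.02 and -0.23 in Col-0 x ein2-5, and heat shock scores are 0.48 and -0.54 in ein2-5 x Col-0, against 0.69 and -0.63 in Col-0 x ein2-5.

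The genes with the smallest unadjusted p mostly had values that fit a few fragments. Of the 20 genes of smallest p, 19 had values that fit small whole numbers of fragments, and for 12 of these the smallest such numbers were at most 5 fragments in each hybrid library. The first of them was PC1, a calcium-binding protein known from pollen. It was listed at 0 in both ein2-5 x Col-0 libraries and at 21.0 and 18.5 FPKM in Col-0 x ein2-5. The smallest whole number that fits is 1 fragment in each Col-0 x ein2-5 library, as in each of the selfed libraries, but a common multiple fits as well. Estimated from transcript length, PC1 averaged 4.57 fragments over the 4 hybrid libraries, so its number of fragments is uncertain. Its limma unadjusted p was 1.4e-05 and its adjusted p 0.28.

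AT1G63950, a heavy-metal-associated domain gene, was listed at 0 in ein2-5 x Col-0 and at 6.97 and 6.14 FPKM in Col-0 x ein2-5, which fits 1 fragment in each. AT2G36355 stood at 4.81 and 5.28 FPKM in ein2-5 x Col-0, which fits 1 fragment in each, and at 0 in Col-0 x ein2-5. Their estimates from transcript length were 1.4 and 1.43 fragments over the 4 hybrid libraries. AT1G62045, with an ankyrin repeat annotation, had 0 and 0 fragments in ein2-5 x Col-0, against 2 and 3 in Col-0 x ein2-5. No fold is given for these genes, since in the smallest fitting numbers both crosses were at or under 3 fragments per library.

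Among the genes of this rank with more fragments, HIPP22, a heavy-metal-associated protein, was among the higher ones. It measured 19.1 and 16.8 FPKM in ein2-5 x Col-0 and 3.72 and 3.27 FPKM in Col-0 x ein2-5, or 10 and 8 fragments against 2 and 2. The log2 difference was 2.07 ± 0.41 (SE), with a limma unadjusted p of 0.0012 and an adjusted p of 1. The selfed crosses had 31.3 and 15.0 FPKM in ein2-5 x ein2-5, against 3.47 and 6.67 FPKM for Col-0 x Col-0, so the 4 libraries with ein2-5 written first were higher than the other 4. AT5G65207, of unknown function, measured 83.7 and 103 FPKM in ein2-5 x Col-0 and 33.5 and 33.7 FPKM in Col-0 x ein2-5, or 17 and 19 fragments against 7 and 8. Its log2 difference was 1.44 ± 0.26 (SE, limma adjusted p = 1), and it overlaps AT5G65205, so the fragments may belong to either. MAP18, a microtubule-associated protein also of this rank, had few fragments. It stood at 6.51 and 5.36 FPKM in ein2-5 x Col-0 and at 0 and 1.39 FPKM in Col-0 x ein2-5, or 4 and 3 fragments against 0 and 1.

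The remaining higher genes of the rank were less than 2-fold apart on the log2(FPKM + 1) scale. APG10, an enzyme of histidine synthesis in plastids, measured 43.4 and 44.5 FPKM in ein2-5 x Col-0 and 29.3 and 26.6 FPKM in Col-0 x ein2-5 (0.63 ± 0.16, SE). AT5G52960, annotated as a tRNA-modifying enzyme, measured 110 and 98.6 FPKM in ein2-5 x Col-0 and 75.5 and 70.4 FPKM in Col-0 x ein2-5 (0.51 ± 0.14). AT5G02502, annotated as a part of the oligosaccharyltransferase, measured 92.6 and 102 FPKM in ein2-5 x Col-0 and 67.6 and 59.5 FPKM in Col-0 x ein2-5 (0.61 ± 0.13). AT1G79075, AT2G14460 and AT4G30845 completed the 10 higher genes, with differences of 0.74, 0.85 and 0.87. All had a limma adjusted p of 1.

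Of the lower genes with more fragments, LRB3, a BTB-domain protein, measured 80.9 and 72.2 FPKM in ein2-5 x Col-0 and 106 and 149 FPKM in Col-0 x ein2-5 (-0.71 ± 0.17, SE). ATG8G, an autophagy protein of the ubiquitin fold, measured 81.8 and 80.8 FPKM in ein2-5 x Col-0 and 113 and 137 FPKM in Col-0 x ein2-5 (-0.61 ± 0.15). AT3G45210 measured 52.3 and 63.4 FPKM in ein2-5 x Col-0 and 82.5 and 113 FPKM in Col-0 x ein2-5 (-0.73 ± 0.19). AT3G07215, a noncoding RNA, measured 5.66 and 7.84 FPKM in ein2-5 x Col-0 and 18.4 and 17.8 FPKM in Col-0 x ein2-5 (-1.32 ± 0.27). AT1G72690 and AT3G56250, also of this rank, had few fragments. AT1G72690 had 1 fragment in each ein2-5 x Col-0 library and 4 in each Col-0 x ein2-5 library, and AT3G56250 had 2 and 1 against 4 and 8. The limma adjusted p was 1 for each.

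**Figure D5:**
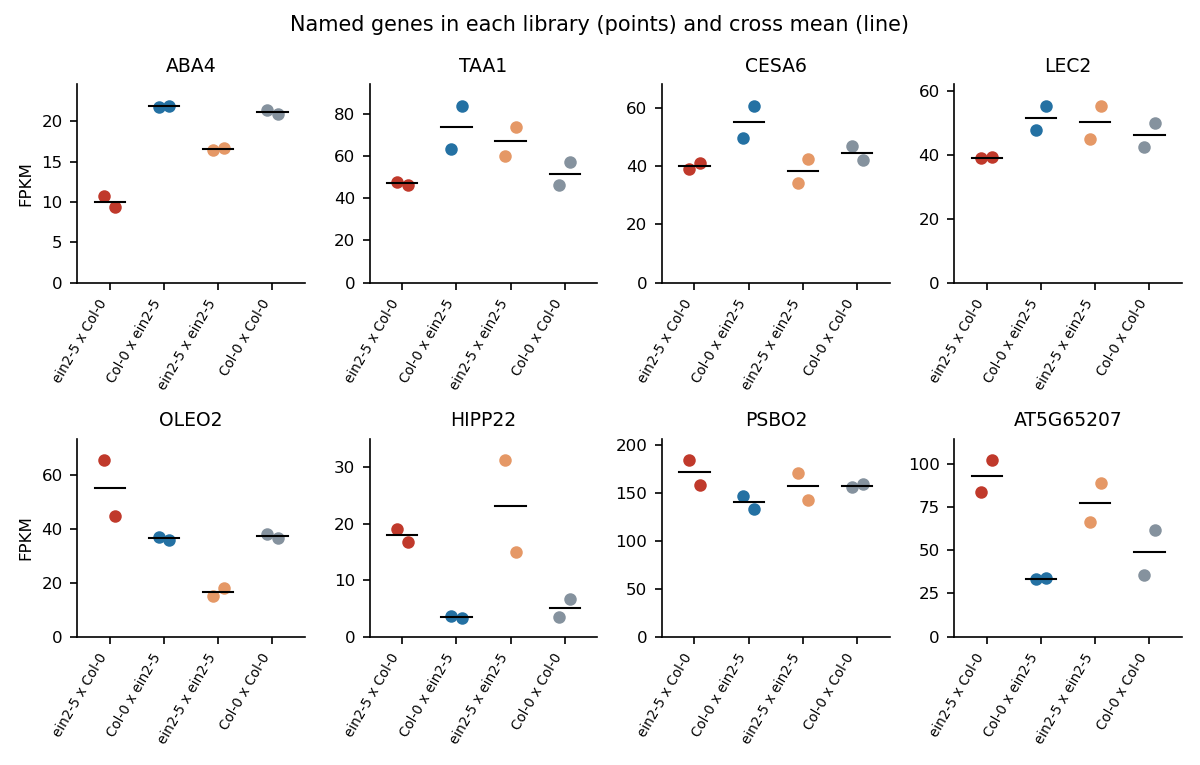
FPKM (vertical axis, from 0) of 8 named genes in each library of the 4 crosses; points are libraries and lines are the mean of 2. ABA4, TAA1, CESA6 and LEC2 have both ein2-5 x Col-0 points under both Col-0 x ein2-5 points, and OLEO2, HIPP22, PSBO2 and AT5G65207 have them above.

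Restricting the description to 14396 genes with a mean of at least 10 estimated fragments left 45 that were at least 2-fold apart without overlap, 17 higher (0.118%) and 28 lower (0.194%) in ein2-5 x Col-0. The following were chosen from them after their values were seen. GA3OX4, an enzyme of gibberellin synthesis, measured 11.1 and 4.43 FPKM in ein2-5 x Col-0 and 12.8 and 23.4 FPKM in Col-0 x ein2-5 (-1.17 ± 0.48, SE). AGL30, a MADS-box gene known from pollen, measured 2.73 and 3.56 FPKM in ein2-5 x Col-0 and 7.91 and 8.90 FPKM in Col-0 x ein2-5 (-1.19 ± 0.32). On the higher side, CBSX5, a CBS-domain protein, measured 15.0 and 14.6 FPKM in ein2-5 x Col-0 and 6.49 and 7.14 FPKM in Col-0 x ein2-5 (1.02 ± 0.29). None passed the limma test after adjustment.

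The direction of the hybrid cross was also compared with the selfed pair, which shares no library with it. Across the 19719 genes, the difference of ein2-5 x Col-0 minus Col-0 x ein2-5 and that of ein2-5 x ein2-5 minus Col-0 x Col-0 had a Pearson r of 0.06, and 50.1% of genes had the same sign in both. Genes are not independent, so this is a description. The median of all tested genes was -0.02 between the hybrids and 0.12 between the selfed crosses. The list medians lay apart in several groups. Ethylene perception and signalling genes had a median of -0.15 between the hybrids and 0.08 between the selfed crosses. Type I MADS-box genes had a median of 0.11 between the hybrids and 1.06 between the selfed crosses. Seed coat flavonoid genes had 0.04 between the hybrids and 1.01 between the selfed crosses. Photosynthesis genes had 0.21 between the hybrids and -0.22 between the selfed crosses. Storage protein and oil body genes had 0.43 between the hybrids and -0.53 between the selfed crosses. The difference between these contrasts was not tested.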

How the data were processed

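RNA of endosperm captured by laser microdissection was sequenced in 8 libraries, 2 per cross. The deposited table gives FPKM values for 34133 genes, made by the authors, with 0 columns left unused. TopHat2 2.1.1, SAMtools 1.5 and Cufflinks 2.2.1 were used with TAIR10, per the submitters' processing notes; their options are not given in the sources used here. FPKM summed to between 979358 and 1026957 in the hybrid libraries.

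Genes with at least 1 FPKM in at least 2 libraries were analysed as log2(FPKM + 1), which understates folds of low genes. limma 3.58.1 in R 4.3.3 fitted the means of the 4 crosses with a variance trend, two-sided, with 4 residual and 3.72 prior degrees of freedom; p-values were adjusted by Benjamini-Hochberg over all tested genes. The script was tested on simulated data.

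The table holds no counts. FPKM steps of low genes gave relative depth. Within 0.06, 98.4% of 4240 low values were whole multiples of the lowest step of their gene, against 12% for evenly spread values. The depths came from these same genes, so this share is no independent check. Whole fragments were found for 96.7% of 3401 genes at up to 5 estimated fragments and 72.3% of 3072 genes at 20 to 40, so no count test was made on them; limma-voom on estimated fragments was an alternative. Depths imply about 1100000 to 1400000 mapped fragments per hybrid library, and fragment numbers cover counting error only.

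The members and the 22 gene lists were chosen with earlier results of these data known. Genes were named by a rule: EIN2; per direction 10 by called difference, filled by smallest unadjusted p among genes without overlap, with a mean of at least 5 FPKM in a cross and a transcript of at least 500 nt; and per list the called members, the 2 most abundant and the 1 of smallest p; 1 gene that the rule names is not reported here. TAIR10.1 annotation served for names and lengths alone, matching 31416 identifiers. Alternatives covered pseudocount, filters, scaling, spread, a replicate block, and leaving out each hybrid library.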

Additional observations from a re-analysis of the deposited data

How the results depend on the processing

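No gene was called by limma under 13 of 18 alternatives. The count of called genes was 1 with a pseudocount of 0.1 (PC1), 4 without a variance trend (AT1G24000, AT1G63950, AT2G36355 and AT5G55650) and 1 with Col-0 x Col-0 replicate 1 left out of the shared spread (RSU1); the smallest whole numbers that fit these were at most 1 fragment per hybrid library, of which the true numbers may be a multiple. Leaving out a hybrid library gave 0 to 5 calls, with 5 without ein2-5 x Col-0 replicate 2 and 4 without Col-0 x ein2-5 replicate 2; the lone library is then assumed to vary like the others. Genes at an unadjusted p under 0.05 numbered 964 in a fit of the 4 hybrid libraries and 227 to 710 with a library left out (227 without Col-0 x ein2-5 replicate 2). Higher genes among them were 49.0% under quantile normalization, 26.6% with limma-voom and 24.9% without ein2-5 x Col-0 replicate 1, against 37.3%. The 502 genes at least 2-fold apart without overlap became 916 and 66 with pseudocounts of 0.1 and 5, 231 at 5 FPKM, 45 at 10 estimated fragments, 82 with limma-voom, and 806 to 1335 with a library left out. The cause was not tested. The r with the selfed difference ran from -0.08 to 0.18 with a library left out. The 10-fragment filter and limma-voom were chosen after seeing the data.

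Across all tested genes replicate numbers showed little pairing of the libraries. Deviations of same-numbered hybrid libraries correlated at 0.05, and at 0.01 to 0.14 between other crosses. For heat shock genes replicate 1 was nevertheless the higher library in both hybrids. With a replicate block 0 genes were called by limma and 745 had an unadjusted p under 0.05. Each replicate number occurs equally often in every cross, so the block could not change the log2 differences or list medians.

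The median of embryo markers, -0.12, was 0.04 without a filter, 0.09 at 5 FPKM, 0.09 at 10 fragments and 0.08 with limma-voom; that of defence genes, 0.21, was 0.02 at 5 FPKM. With a library left out, medians ran as follows: maternally expressed imprinted genes -0.25 to 0.18, PRC2 subunits -0.15 to 0.00, type I MADS-box genes -0.15 to 0.47, seed coat mucilage genes -0.36 to 0.03, auxin synthesis, transport and Aux/IAA -0.34 to 0.11, ethylene-responsive genes 0.05 to 0.35, ethylene biosynthesis -0.01 to 0.40, paternally expressed imprinted genes -0.25 to 0.17, seed size regulators -0.19 to 0.06, seed storage proteins and oil bodies 0.21 to 0.84, defence and jasmonate response -0.06 to 0.70, photosynthesis 0.10 to 0.32. Differences near 0 turned sign in named genes: TT4 was 0.02 after median-ratio scaling, and under quantile normalization MSI1 was -0.02, ICE1 -0.08, KN -0.05, SWEET15 -0.02 and IAA8 -0.02. With a library left out, ranges that crossed or reached 0 were ERF4 -0.06 to 0.31, SBT1.7 -0.01 to 0.32, CSLA2 -0.20 to 0.06, CESA3 -0.10 to 0.04, ARF2 -0.23 to 0.06, RTE1 -0.12 to 0.05, EOL1 -0.11 to 0.16, SDC -0.25 to 0.18, ICE1 -0.03 to 0.10, ESF1.3 -2.91 to 0.21, TT4 -0.58 to 0.57, LDOX -0.46 to 0.37, KN -0.03 to 0.22, SWEET15 -0.02 to 0.14, IAA8 -0.07 to 0.11, ABA2 -0.17 to 0.05, CYP707A1 -0.06 to 0.37, CMT3 -0.08 to 0.16, HSP90.1 -0.36 to 0.20, HSP70 -0.52 to 0.33, IAA9 -0.22 to 0.07, MSI1 -0.07 to 0.12, HSP18.2 -0.23 to 1.03. At these depths, genes under about 3 fragments per library allow no statement of a difference.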
